A study of Homo sapiens with 6 samples.

Results

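Lysosomal genes were compared between erlotinib-resistant HN5 cells and the parental HN5 line. The set held 44 genes in 4 groups: 11 cathepsins, 24 other hydrolases and their soluble cofactors, 7 membrane proteins and 2 transcriptional regulators. Each gene was read from the probe that carried its symbol in the platform annotation, and where several did, from the probe with the highest mean over the 6 arrays. Of the 44 genes, 43 had a named probe and 40 were bright enough to be tested, out of 11290 genes tested in all. CD63 had no named probe and is not analysed here, and CTSK, CTSS and TFEB lay at or near background.

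HN5 cells derive from a squamous carcinoma of the human head and neck, and erlotinib inhibits the kinase of the epidermal growth factor receptor. Resistant cells came from the parental line through erlotinib raised stepwise over 3 months to 12.5 µM and then held at that concentration for 6 months. Parental cells are labelled erlotinib-sensitive. Total RNA was measured on 3 arrays of resistant cells and 3 arrays of parental cells, and values are the authors' normalized log2 signals. All resistant arrays measure 1 derived line, and whether the drug was still there at harvest is not stated, so resistance, drug exposure and months in culture cannot be told apart. The labels call the samples biological replicates without naming separate cultures. Each p-value therefore covers the variation among these 6 samples alone, some of which may be technical.

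Lysosomes are acidic compartments in which soluble hydrolases break down proteins, glycans and lipids. Most of these enzymes are made as precursors, tagged with mannose 6-phosphate in the Golgi and carried to the lysosome by receptors, where acid activates them. Heavily glycosylated membrane proteins line the compartment, and the related transcription factors TFEB and TFE3 raise the transcription of many lysosomal genes. In carcinomas, cathepsin proteases can also be secreted and cleave extracellular matrix.

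Across probes, which are not independent replicates, 2 arrays of 1 group correlated at 0.996 to 0.997 and a resistant with a parental array at 0.978 to 0.980. The squamous carcinoma markers KRT5, KRT14, SFN, DSG3, CDH1 and EPCAM were above background on all 6 arrays, and all 6 fell in resistant cells, by 1.11, 0.53, 0.48, 1.06, 0.95 and 0.60 on the log2 scale (limma adjusted p = 2.00e-08 to 7.33e-05). KRT6A and TP63 had no named probe and are not analysed here. Some markers of other cell types moved as well. Among 8 fibroblast markers, COL1A1 rose by 0.55, and DCN and LUM, at background on every parental array, rose at least 5.52-fold and 2.37-fold on their brightest probes. COL1A2 rose by 0.25 on its brighter probe, which was at background on every parental array and so was tested only through its resistant arrays. On the other probe COL1A2 differed by -0.06, and that probe exceeded the limit in parental cells (3 of 3 arrays). The mean of both probes did not pass (limma adjusted p = 0.116). COL3A1 and FAP exceeded the limit on 2 resistant arrays, too few for a test, and THY1 and PDGFRB on none. The summed linear signal of the 8 fibroblast markers was 1915 to 1933 on resistant arrays, against 991 to 1010 on parental arrays. Of the endothelial markers PECAM1 rose at least 1.21-fold from background, while no array exceeded the limit for ESAM, CLDN5, TEK, KDR, CDH5 or VWF. The summed signal of these 7 endothelial markers was 821 to 827 on resistant arrays, against 777 to 782 on parental arrays. Background was not subtracted from the fibroblast or the endothelial sum. The part of these markers in the lysosomal differences was not tested. In bulk RNA, fewer cells of a type and less RNA per cell cannot be told apart.

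More lysosomal genes were higher than lower in the resistant cells. Of the 40 genes tested, 23 rose (57.5%) and 6 fell (15%), while 26.2% of all genes tested rose and 27.1% fell, 53.3% in either direction (limma, Benjamini-Hochberg adjusted p under 0.05 over all genes). A rise of at least 1.5-fold was seen for 10 of the 40, against 5.67% of all genes tested, and a fall of that size for 2 of the 40, against 5.12%. The groups did not overlap for 31 of the 40 genes (77.5%), with resistant arrays above parental arrays for 25 and below for 6, against 59.3% of all genes tested, 28.9% above and 30.4% below. The median log2 difference over the 40 genes was 0.22, against -0.01 over all genes tested. None of the 40 had a group at background on every array, so no gene entered the count only through the group in which it was high. These genes were picked with earlier results of the data known, so the counts are a description of the set.

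**Figure D1:**
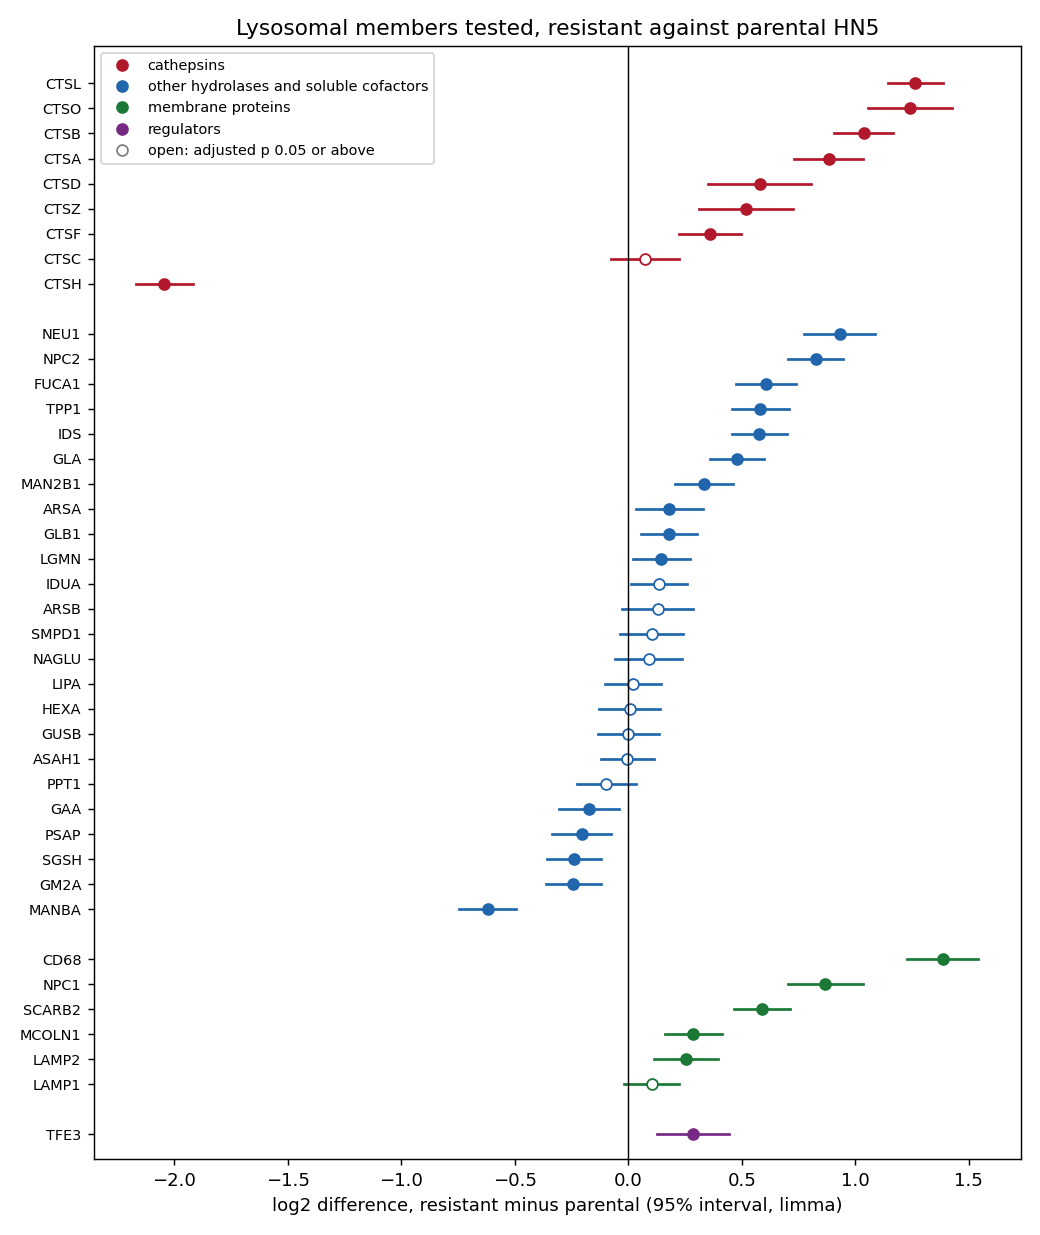
Log2 difference, resistant minus parental, of each of the 40 tested lysosomal genes, sorted within cathepsins, other hydrolases and cofactors, membrane proteins and regulators. Points are limma estimates from 3 arrays a group, bars are 95% intervals, and open points did not pass an adjusted p of 0.05. CTSH at -2.04 stands apart on the left, and CD68 (1.38), CTSL (1.26) and CTSO (1.24) lie farthest to the right.

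Of the 2 transcriptional regulators, TFE3 rose and TFEB was not measurable. TFE3, which moves to the nucleus when nutrients are scarce, had log2 signals of 7.47, 7.20 and 7.34 on the resistant arrays, against 7.01, 6.99 and 7.15 on the parental arrays. Every resistant array lay above every parental array, though all 6 were dim. The rise was 0.29 on the log2 scale (1.22-fold, SE 0.0739, limma adjusted p = 0.00520), and 2.36-fold once the background mode of each array was subtracted. TFEB, its paralogue, gave 6.84, 6.85 and 6.84 on the resistant arrays, against 6.99, 6.93 and 6.82 on the parental arrays, where the background limit was about 6.98. Only 1 parental array exceeded the limit, so no difference was tested. Of their relatives, MITF was above the limit on 2 parental arrays only and TFEC on none.

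TFEB and TFE3 bind an element called CLEAR, a palindrome built on the E-box CACGTG. Promoter windows of 300 bases, 250 before and 50 after the annotated start (RefSeq, GRCh38.p14), were matched by symbol for 31 of the 44 genes, 29 of them tested on the arrays. CACGTG, which reads the same on both strands, was found in 7 of the 29 windows of tested members (24.1%), against 10.2% of the 9105 windows of all genes tested. Of the other two windows, that of CD63 held it and that of TFEB did not. TCACGTG on either strand, which contains that E-box, was found in the same 7 windows (24.1%), against 5.9%. The full CLEAR palindrome was found in MCOLN1 and GAA, 2 of 29 (6.9%), against 0.813%. Windows with TCACGTG belonged to 5 of 18 genes that rose (CTSA, CTSD, CTSF, NEU1 and MCOLN1), 1 of 3 that fell (GAA) and 1 of 8 not called (LAMP1). The windows of CD68, CTSL and CTSH, which changed most among those matched, held no CACGTG. A match describes letters and not binding.

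The 250 bases before the start are shown for 3 genes that rose (MCOLN1, CTSA and NEU1). They are also shown for the gene that fell (GAA) and for the one not called (LAMP1). Each of these windows carries TCACGTG, and those of MCOLN1 and GAA also carry the full CLEAR palindrome. The call of GAA was fragile. The windows of CTSD and CTSF, which rose and also hold TCACGTG, are not shown. Whether the element bears on the calls was not tested. Capitals mark CACGTG with the flanking T or A where it completes TCACGTG on either strand. The sequences lie at chr19:7522374-7522623 (+ strand), chr20:45891085-45891334 (+ strand), chr6:31862822-31863071 (- strand), chr17:80101331-80101580 (+ strand) and chr13:113296989-113297238 (+ strand), each written 5′ to 3′ along its gene.
MCOLN1: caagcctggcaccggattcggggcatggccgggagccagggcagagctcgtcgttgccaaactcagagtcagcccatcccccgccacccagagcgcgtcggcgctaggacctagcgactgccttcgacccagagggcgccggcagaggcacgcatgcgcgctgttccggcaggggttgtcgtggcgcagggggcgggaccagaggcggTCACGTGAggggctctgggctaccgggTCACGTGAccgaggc
CTSA: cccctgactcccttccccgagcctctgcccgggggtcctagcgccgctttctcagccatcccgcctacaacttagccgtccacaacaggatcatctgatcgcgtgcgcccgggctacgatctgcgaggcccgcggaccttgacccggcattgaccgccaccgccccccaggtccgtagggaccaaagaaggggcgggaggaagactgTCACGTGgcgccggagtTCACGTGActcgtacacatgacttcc
NEU1: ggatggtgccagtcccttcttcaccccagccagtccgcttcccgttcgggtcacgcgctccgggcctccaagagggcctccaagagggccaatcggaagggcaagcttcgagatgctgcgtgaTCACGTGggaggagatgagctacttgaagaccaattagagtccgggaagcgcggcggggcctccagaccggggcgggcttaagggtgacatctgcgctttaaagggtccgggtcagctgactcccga
GAA: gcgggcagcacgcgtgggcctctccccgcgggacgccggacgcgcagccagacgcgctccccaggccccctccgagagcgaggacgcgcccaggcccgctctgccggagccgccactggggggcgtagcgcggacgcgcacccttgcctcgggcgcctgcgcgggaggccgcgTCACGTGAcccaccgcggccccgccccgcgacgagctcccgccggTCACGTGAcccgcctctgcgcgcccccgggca
LAMP1: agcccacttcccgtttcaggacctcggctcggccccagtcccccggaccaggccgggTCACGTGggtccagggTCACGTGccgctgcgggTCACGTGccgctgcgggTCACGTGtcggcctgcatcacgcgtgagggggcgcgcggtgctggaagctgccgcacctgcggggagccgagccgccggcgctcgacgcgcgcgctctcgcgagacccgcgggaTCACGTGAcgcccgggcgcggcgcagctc
Counting back from the start, the first base of CACGTG lay at -41 and -14 in MCOLN1, at -42 and -25 in CTSA, at -126 in NEU1 and at -76 and -31 in GAA. The 300-base window of LAMP1 held 6 copies. On the arrays MCOLN1 rose by 0.29, CTSA by 0.88 and NEU1 by 0.93, GAA fell by 0.17, and LAMP1 differed by 0.10 without passing the test. The signals of GAA were close to background, and its call was lost when any of several arrays was left out.

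Most cathepsins rose, and 1 fell by more than any other lysosomal gene. Cathepsins are the main lysosomal proteases, mostly cysteine enzymes. Of 9 tested, 7 rose (77.8%, against 26.2% of all genes) and 1 fell (11.1%, against 27.1%), with a median log2 difference of 0.58. CTSL, an endopeptidase, had log2 signals of 11.74, 11.81 and 11.77 on the resistant arrays, against 10.57, 10.50 and 10.46 on the parental arrays. The gap between the groups was many times the spread within either. CTSL rose 2.40-fold (log2 1.26, SE 0.0561, limma adjusted p = 6.19e-10), and its other probes rose by 1.5 and 0.44.

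CTSB, which works as an endopeptidase and as a dipeptidyl carboxypeptidase, gave 11.98, 11.92 and 11.85 on the resistant arrays, against 10.95, 10.83 and 10.86 on the parental arrays. It rose 2.05-fold (log2 1.04, SE 0.0598, limma adjusted p = 8.62e-09), with 1.37 on its other probe. CTSO, a little-studied cysteine cathepsin, gave 8.81, 8.79 and 8.61 on the resistant arrays, against 7.34, 7.45 and 7.70 on the parental arrays. Parental replicate 3 was the highest of its group and still lay well below the resistant arrays. The rise of CTSO was 2.36-fold (SE 0.0861 on the log2 scale, limma adjusted p = 5.46e-08), and 4.63-fold with the background mode subtracted.

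CTSA is a serine carboxypeptidase that also shields the enzymes NEU1 and GLB1 in a complex. Its log2 signals were 9.88, 10.01 and 9.83 on the resistant arrays, against 8.92, 9.14 and 9.0 on the parental arrays, a rise of 1.85-fold (SE 0.0704 on the log2 scale, limma adjusted p = 2.12e-07). CTSD, the main lysosomal aspartic protease, averaged 10.34 ± 0.231 in resistant cells and 9.76 ± 0.166 in parental cells (SD, n = 3 each), the widest spread within the resistant group among the tested genes of the set. Even so the groups did not overlap, and CTSD rose by 0.58 (SE 0.105, limma adjusted p = 3.88e-04). CTSZ, a carboxypeptidase, rose by 0.52 and CTSF by 0.36, and with the background mode subtracted their folds went to 2.19 and 2.07 in place of 1.43 and 1.28.

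CTSH is an aminopeptidase, and it went the other way. The log2 signals were 8.32, 8.34 and 8.39 on the resistant arrays, against 10.35, 10.36 and 10.47 on the parental arrays. The level in resistant cells was 0.243 of that in parental cells (log2 difference -2.04, SE 0.0574, 95% interval -2.17 to -1.92, limma adjusted p = 6.91e-12). The size depends on the probe, since the dimmer CTSH probe fell by 0.69 and the mean of both gave 0.388 of the parental level. CTSC, the dipeptidyl peptidase that activates granule proteases of leukocytes, differed by 0.07 (95% interval -0.08 to 0.22, limma adjusted p = 0.409), and its 3 tested probes lay between 0.01 and 0.14.

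CTSS and CTSK, cathepsins known from antigen-presenting cells and from osteoclasts, were not tested. CTSS gave 6.79, 6.84 and 6.75 on the resistant arrays, against 6.67, 6.71 and 6.70 on the parental arrays, all at background. CTSK gave 7.0, 6.94 and 6.89 on the resistant arrays, against 6.90, 6.84 and 6.86 on the parental arrays, with 1 resistant array above the limit.

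**Figure D2:**
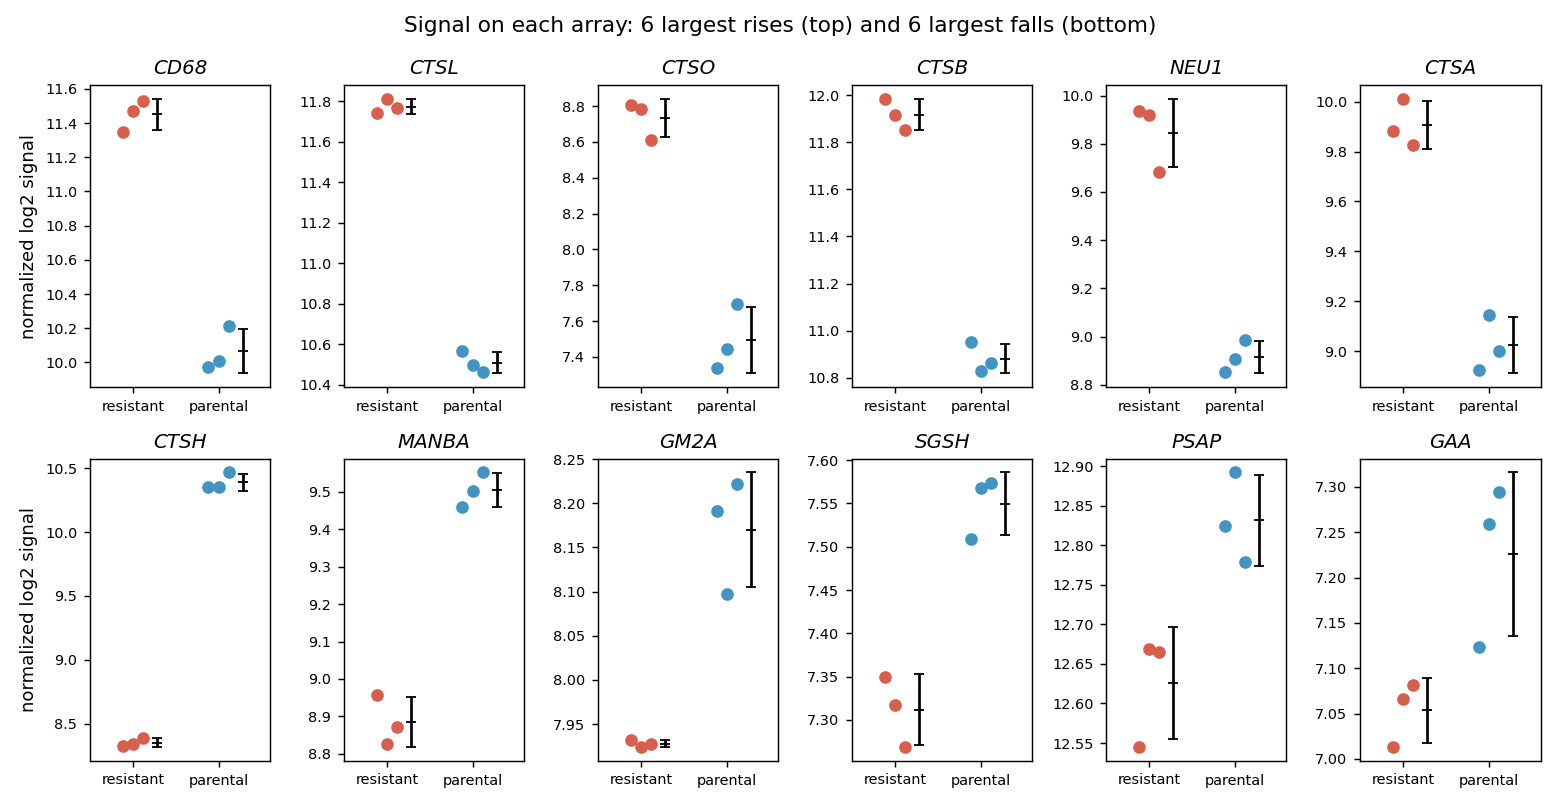
Normalized log2 signal on each array for the 6 lysosomal genes with the largest rises (top) and the 6 with the largest falls (bottom). Points are single arrays, bars are the mean and SD of 3 arrays, and each panel has its own vertical axis, which does not start at 0. In all 12 panels the resistant and parental arrays are separate, with the widest gap for CTSH and the narrowest for GAA.

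The other hydrolases and cofactors were the most mixed group. Of 24 tested, 10 rose (41.7%, against 26.2% of all genes) and 5 fell (20.8%, against 27.1%), and the median log2 difference was 0.12. The count of rises depended on the arrays and the processing. Only 7 of the 24 rose without parental replicate 2, and 8 without resistant replicate 3 or with the background mode subtracted. With cyclic loess 11 rose. The largest rise was that of NEU1, the lysosomal sialidase, which gave 9.93, 9.92 and 9.68 on the resistant arrays, against 8.85, 8.91 and 8.98 on the parental arrays. NEU1 rose 1.91-fold (SE 0.0723 on the log2 scale, limma adjusted p = 1.67e-07). Its partner CTSA rose by a similar amount. The third member of the complex is the beta-galactosidase GLB1, which averaged 10.25 ± 0.0600 in resistant cells and 10.07 ± 0.0434 in parental cells (SD, n = 3 each). GLB1 rose by 0.18 (limma adjusted p = 0.0177), a call lost without resistant replicate 1, resistant replicate 2 or parental replicate 2 (adjusted p = 0.0627, 0.0591 and 0.0653). With the background mode subtracted this call was lost too (limma adjusted p = 0.0698).

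NPC2, a soluble protein that hands cholesterol to NPC1 in the lysosomal membrane, averaged 13.46 ± 0.0472 in resistant cells and 12.63 ± 0.0454 in parental cells (SD, n = 3 each). It rose 1.77-fold (SE 0.0563 on the log2 scale, limma adjusted p = 4.56e-08) although its signal was near the top of the array's range, which reached 13.76. The fucosidase FUCA1 rose by 0.61, the tripeptidyl peptidase TPP1 by 0.58 and the alpha-galactosidase GLA by 0.48 (limma adjusted p = 1.84e-06 to 7.91e-06). IDS, a sulfatase that acts on heparan and dermatan sulfate, rose by 0.58 on its brightest probe (limma adjusted p = 1.23e-06), by 0.28 on another, and differed by 0.18 on the dimmest, which did not pass. MAN2B1, the lysosomal alpha-mannosidase, rose 1.26-fold, and 2.07-fold with the background mode subtracted.

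Some small rises lay close to the threshold, and leaving out any of several arrays ended the call. ARSA, which desulfates the myelin lipid sulfatide, rose by 0.18 (limma adjusted p = 0.0378), and its call was lost without resistant replicate 1 or 3 or parental replicate 2 (adjusted p = 0.130, 0.0722 and 0.173). Subtraction of the background mode also ended the call of ARSA (limma adjusted p = 0.0715). LGMN, the asparaginyl endopeptidase that processes cathepsins, rose by 0.15 (limma adjusted p = 0.0487). It no longer passed without resistant replicate 1 or 3 or without parental replicate 1, 2 or 3 (adjusted p = 0.195, 0.0619, 0.103, 0.0911 and 0.0810), and under 6 further alternatives.

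MANBA, the lysosomal beta-mannosidase, had the clearest fall outside the cathepsins. The log2 signals were 8.96, 8.83 and 8.87 on the resistant arrays, against 9.46, 9.5 and 9.55 on the parental arrays. MANBA fell by 0.62 (SE 0.0583, limma adjusted p = 1.08e-06), while the alpha-mannosidase MAN2B1 rose. GM2A, the activator protein that presents GM2 ganglioside to hexosaminidase, gave 7.93, 7.92 and 7.93 on the resistant arrays, against 8.19, 8.10 and 8.22 on the parental arrays, and fell by 0.24 (SE 0.0562, limma adjusted p = 0.00248). PSAP, the precursor of the saposins that activate sphingolipid hydrolases, gave 12.54, 12.67 and 12.66 on the resistant arrays, against 12.82, 12.89 and 12.78 on the parental arrays. PSAP fell by 0.21 (limma adjusted p = 0.0105) on its brighter probe and by 0.21 on the other. The call was narrowly lost without resistant replicate 1, where the adjusted p was just over 0.05. It was also lost with the background mode subtracted (limma adjusted p = 0.0650). Both sphingolipid activators on the list thus fell, though the call of PSAP was fragile.

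SGSH, the heparan sulfamidase, gave 7.35, 7.32 and 7.27 on the resistant arrays, against 7.51, 7.57 and 7.57 on the parental arrays. It fell by 0.24 (SE 0.0551, limma adjusted p = 0.00243). GAA, the acid alpha-glucosidase that degrades glycogen, gave 7.01, 7.07 and 7.08 on the resistant arrays, against 7.12, 7.26 and 7.29 on the parental arrays, close together and close to background. GAA fell by 0.17 (limma adjusted p = 0.0285), or to 0.573 of the parental level with the background mode subtracted. The dimmer GAA probe differed by -0.10 and did not pass. The call of GAA was lost without resistant replicate 1 or 2 or parental replicate 2 or 3 (adjusted p = 0.0879, 0.0580, 0.0842 and 0.106). Without resistant replicate 1, therefore, 3 of the 24 hydrolases and cofactors fell in place of 5.

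The remaining 9 hydrolases did not pass the test: IDUA, NAGLU, SMPD1, ARSB, LIPA, HEXA, GUSB, ASAH1 and PPT1. Their log2 differences lay between -0.10 and 0.14. GUSB, the beta-glucuronidase, differed by 0.000997 with a 95% interval of -0.13 to 0.13, and the acid lipase LIPA by 0.02 (-0.10 to 0.14). The acid ceramidase ASAH1 differed by -0.00346 (95% interval -0.12 to 0.11). IDUA, the iduronidase, was higher on every resistant array (difference 0.14, limma adjusted p = 0.0596) and passed under 5 of the 14 alternatives. These were without parental replicate 3 (adjusted p = 0.0494), the mean of probes (0.0417), the moderation trend (0.0345), cyclic loess (0.0441) and background subtraction (0.0146, with a difference of 0.51). Without resistant replicate 1, ARSB and NAGLU passed as well, at differences of 0.20 and 0.16 (limma adjusted p = 0.0345 and 0.0492).

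All 6 tested membrane proteins were higher on every resistant array than on every parental array, as were 28.9% of all genes tested, and 5 of the 6 rose, against 26.2% of all genes. The median log2 difference was 0.44. CD68, a glycoprotein related to the LAMP family and abundant in macrophage lysosomes, gave 11.35, 11.47 and 11.53 on the resistant arrays, against 9.98, 10.01 and 10.21 on the parental arrays. This was the largest rise of the set, 2.61-fold (log2 1.38, SE 0.0729, limma adjusted p = 3.41e-09), and the other CD68 probes rose by 0.51 and 0.72. The gene was well above background in both lines.

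Since CD68 is also used as a macrophage marker, a list of 16 such markers was read beside it. PTPRC, CD163, ITGAM, FCGR1A, LYZ, TYROBP, FCER1G, MRC1 and SPI1 were at background on all 6 arrays, MARCO exceeded the limit on 1 resistant array, and CD33 had no named probe and is not analysed here. Of the 5 tested, CSF1R fell by 0.66 and ADGRE1 rose by 0.31, while CD14, FCGR3A and AIF1 differed by 0.11, 0.12 and -0.03 without passing. Thus 1 of the 5 rose (20%, against 26.2% of all genes) and 1 fell (20%, against 27.1%), both near the shares of all genes. Without parental replicate 1, with the moderation trend or after background subtraction, 2 of the 5 rose in place of 1. The summed linear signal of the 15 measured markers was 2092 to 2157 on resistant arrays, against 2183 to 2211 on parental arrays. Background was not subtracted from this sum, and 9 of the 15 markers were at background on all 6 arrays.

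NPC1, the membrane partner of NPC2 in cholesterol export, averaged 9.34 ± 0.120 in resistant cells and 8.48 ± 0.129 in parental cells (SD, n = 3 each). It rose 1.82-fold (SE 0.0768 on the log2 scale, limma adjusted p = 5.85e-07), close to the rise of NPC2. SCARB2, the receptor that brings glucocerebrosidase to lysosomes, rose by 0.59 (limma adjusted p = 1.31e-06), and the calcium channel MCOLN1 rose by 0.29 (limma adjusted p = 9.84e-04). The abundant structural glycoproteins moved least. LAMP2 averaged 11.57 ± 0.0505 in resistant cells and 11.31 ± 0.111 in parental cells (SD, n = 3 each), a rise of 0.26 (limma adjusted p = 0.00466), and 5 of its 6 probes rose, by 0.26 to 0.51. LAMP1 gave 12.31, 12.35 and 12.32 on the resistant arrays, against 12.22, 12.29 and 12.16 on the parental arrays, a difference of 0.10 (95% interval -0.02 to 0.23, limma adjusted p = 0.137).

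**Figure D3:**
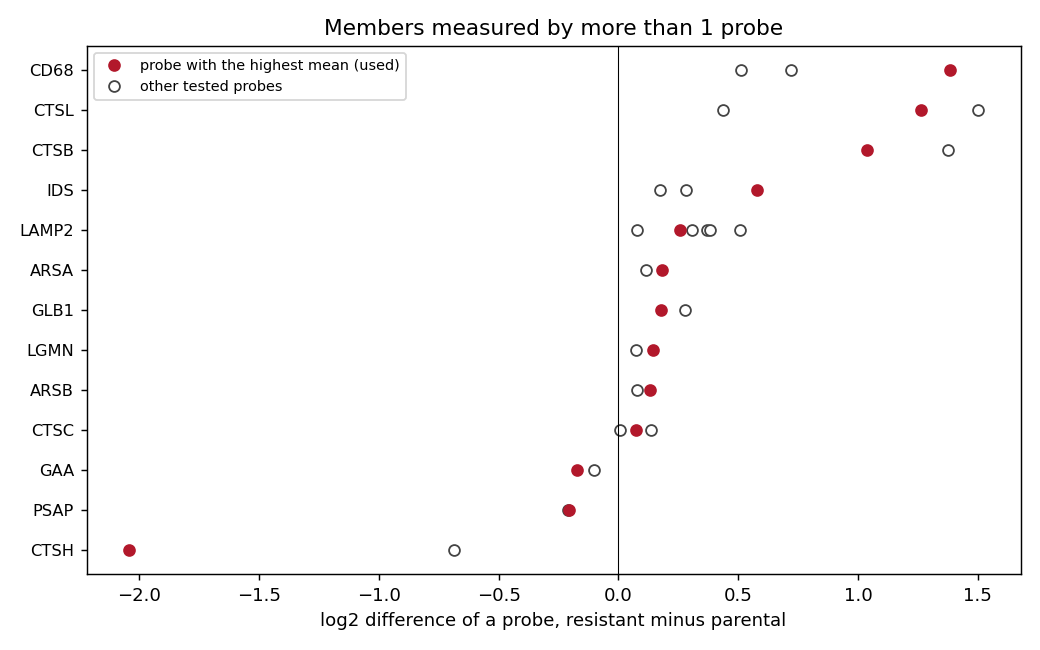
Log2 difference, resistant minus parental, of each tested probe for the 13 lysosomal genes with more than 1 tested probe. Filled points are the probes with the highest mean, used throughout, and open points are the other probes. Probes of a gene lie on the same side of 0 in all 13 genes but differ in size, most for CTSH (-2.04 and -0.69), CTSL (0.44 to 1.5) and CD68 (0.51 to 1.38).

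Genes that serve the lysosome outside the set were read from lists of the same pathway. The proton pump that acidifies the lumen did not move one way. Of 18 tested subunits 5 rose (27.8%) and 8 fell (44.4%), against 26.2% and 27.1% of all genes tested. The share that rose was thus near that of all genes. With all 6 arrays required above background 7 of 17 fell, and without resistant replicate 2 only 6 of 18 fell, while 5 rose in both. The subunits had a median log2 difference of -0.04. ATP6V0E2, a small membrane subunit, fell by 1.51 (limma adjusted p = 1.19e-09), ATP6V0D1 fell by 0.56 and ATP6V1F by 0.54, while TCIRG1 rose by 0.40. Enzyme sorting was mixed too, with 3 of 8 genes rising (37.5%, against 26.2% of all genes) and 4 falling (50%, against 27.1%). Only 3 fell without resistant replicate 2 or 3 or without parental replicate 1 or 3. The same number fell with no filter, with cyclic loess and with the background mode subtracted. Only 2 rose without resistant replicate 1 or parental replicate 2, or with the background mode subtracted. The mannose 6-phosphate receptor M6PR rose by 0.23, whereas the subunits of the phosphotransferase that makes the tag, GNPTAB and GNPTG, fell by 0.19 and 0.26, and the adaptor GGA2 fell by 0.41.

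Among 7 tested cathepsin inhibitors 4 rose (57.1%) and 1 fell (14.3%), against 26.2% and 27.1% of all genes tested. SERPINB13, a serpin known to inhibit CTSL and CTSK, fell by 1.09 (limma adjusted p = 1.56e-09). SERPINB3 rose by 0.50, and its near-identical copy SERPINB4 rose at least 1.28-fold from background; the copies cannot be told apart, and neither was tested when all 6 arrays had to be above background, which left 2 rises. The secreted inhibitor cystatin C (CST3) rose by 0.27. CSTB, the cytosolic cystatin B, differed by -0.0450 (limma adjusted p = 0.571).

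Lysosomal hydrolases outside the set were mixed. Of 21 tested 7 rose (33.3%, against 26.2% of all genes) and 3 fell (14.3%, against 27.1%), none by 1.5-fold, and 5 fell without resistant replicate 1. One of the 7, the amidase NAAA, was tested only because its resistant arrays were above background, and with all 6 arrays required above background 6 of 20 rose. RNASET2, an acid ribonuclease, rose by 0.42 and the mannosidase MAN2B2 by 0.46, while CTSV, the cathepsin closest to CTSL in sequence, fell by 0.41. Of 23 other lysosomal membrane proteins 11 rose (47.8%, against 26.2% of all genes) and 4 fell (17.4%, against 27.1%). The nucleoside transporter SLC29A3, among the 4, was above background on parental arrays only, and with all 6 arrays required 11 of 21 rose and 3 fell. The peptide and histidine transporters SLC15A3 and SLC15A4 rose by 1.31 and 0.75, LAMP3, known from mature dendritic cells, by 1.18, and the amino acid sensor SLC38A9 by 0.58, while LITAF fell by 0.51.

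Of 14 nutrient-sensing genes of the lysosomal surface 6 rose (42.9%, against 26.2% of all genes) and 2 fell (14.3%, against 27.1%). Only 4 rose without resistant replicate 3 or with the mean of probes. RRAGC, a Rag GTPase that recruits the growth kinase mTORC1, rose 1.90-fold (SE 0.0558 on the log2 scale, limma adjusted p = 1.29e-08), and TSC1, a brake on that kinase, rose by 0.56 on its brightest probe and differed by -0.02 on its dimmest. MTOR itself differed by 0.05 (limma adjusted p = 0.550). Of 16 autophagy genes 7 rose (43.8%, against 26.2% of all genes) and 1 fell (6.25%, against 27.1%). GABARAPL1, which coats autophagosomes, rose by 0.91, and the cargo receptors SQSTM1, OPTN and CALCOCO2 rose by 0.50, 0.43 and 0.38. GABARAPL2 fell by 0.31 on its brighter probe and differed by -0.04 on the other.

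**Figure D4:**
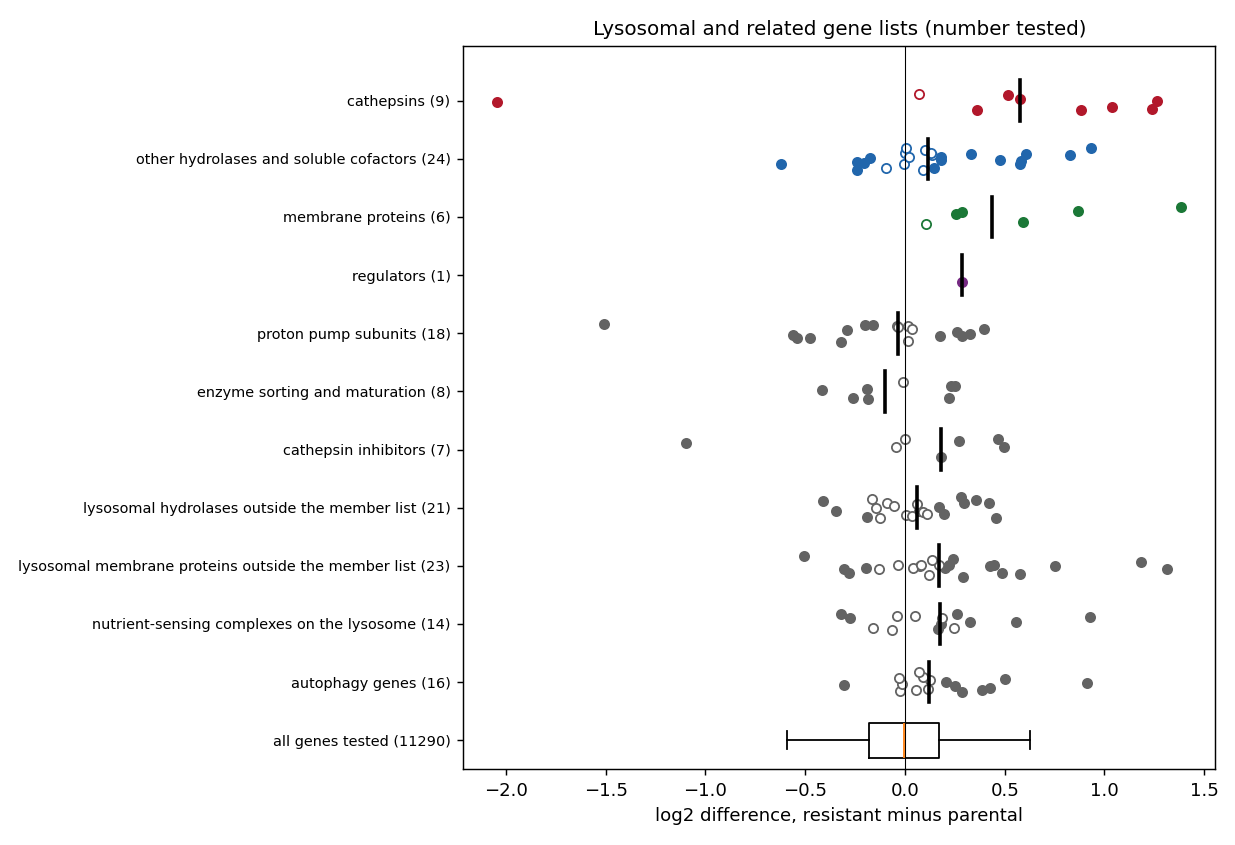
Log2 difference, resistant minus parental, of the tested genes in each lysosomal group and each related list, with the number tested in brackets. Filled points passed an adjusted p of 0.05 in limma, open points did not, black lines are list medians, and the box for all 11290 genes spans the quartiles with whiskers at the 5th and 95th percentiles. Medians run from -0.10 for enzyme sorting and maturation to 0.58 for cathepsins, and that of all genes is -0.01.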

How the data were processed

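The 6 Illumina arrays, 3 of resistant and 3 of parental HN5 cells, were grouped by the sample titles. The authors deposited normalized log2 signals for 47230 probes; the sources used here name no software, background treatment or normalization, and base 2 was read from the values, which ran from 6.51 to 13.76 on each array. Sorted values of the arrays differed by at most 0.00434, so each difference is relative to the other probes. The 12 per-sample columns of an unnormalized table were left out, since their names match no sample label.

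Probes were named from the platform annotation: 30112 had 1 gene symbol, 8 had several and 17110 are unnamed here, and 0 symbols changed through Entrez IDs. A probe was above background when it exceeded the mode of its array by 3 SD of the values below the mode, which 40.2% to 40.4% of probes did. Each gene took its probe with the highest mean and was tested when that probe was above background on at least 3 of the 6 arrays. Resistant and parental arrays were compared with limma 3.58.1 in R 4.3.3 (lmFit, eBayes, no replicate block), with Benjamini-Hochberg adjustment over 11290 genes at a threshold of 0.05; the fit was tested on simulated data. Values near the floor may be compressed, so folds of dim genes may be understated. Folds with the background mode subtracted depend on that mode and on values below the limit being raised to it, and are rough for dim genes. "At least" folds set the brighter group's mean against the background limits of the dimmer group. Precision is limited by the number of arrays.

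The members and the lists were chosen with earlier results of these data known. Values on every array are given for the 6 largest rises and the 6 falls, the regulators and genes at background; up to 6 genes of each other list with the smallest adjusted p, and the whole of the marker lists, could be named. MITF, TFEC, CSTB, MTOR, NAAA and SLC29A3 were named outside that rule, after their values were seen. The values of LAMP1 on every array were also given outside it. Promoters come from RefSeq. Alternatives were a replicate block, each replicate left out, no filter or a strict one, the mean of probes, a moderation trend, array weights, cyclic loess and subtraction of the background mode.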

Additional observations from a re-analysis of the deposited data

How the results depend on the processing

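Across 14 alternatives, 6 of them with 1 replicate left out, the count of lysosomal genes that rose lay between 20 and 24 (23 as reported) and the count that fell between 4 and 6 (6 as reported). The median log2 difference moved from 0.22 to 0.49 when the background mode was subtracted, which stretches the scale of dim genes; over the other alternatives it lay between 0.18 and 0.26. Of 406 repeat fits of the 29 called genes, 25 lost the call, 16 of them with a replicate left out, and 0 changed sign; the losses fell on ARSA, GAA, GLB1, LGMN and PSAP. With the replicate block 22 genes rose and 6 fell, the median stayed at 0.22, and the call lost was that of LGMN (limma adjusted p = 0.0548). The block also gave 8 rises and 3 falls among the nutrient-sensing genes, where 6 and 2 are reported. The deviations of same-numbered replicates correlated at 0.145, 0.0013 and 0.0859, and those of differently numbered replicates at -0.197 to 0.128. The labels do not say whether same-numbered samples shared a culture or day. These correlations cannot decide it, since deviations from a mean of 3 arrays depend on each other. The 40.2% to 40.4% of probes above background limit what could be measured: CTSK, CTSS and TFEB have no tested value.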
